A study of Mus musculus with 6 samples.

Results

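The genes described here carry fatty acids into mitochondria as carnitine esters, break them down by beta-oxidation in mitochondria and peroxisomes, and regulate that programme through the PPAR nuclear receptors. They were chosen as a list of 37 symbols of known function, each of which matched 1 row among the 32285 genes of the deposited count table. The material was mouse germline stem cells, cultures that hold the stem cells of spermatogenesis, of the line DBA-GFP with genotype WT, and their transcripts were read by mRNA-seq. The control group was grown in complete medium and the other group in a medium labelled 8 mM pyruvate, with 3 libraries per group and no other difference in genotype, line or cell type in the labels. The labels give neither the composition of the media nor the time in them, and do not say whether each library is a culture of its own, so p-values reflect the spread among these libraries alone, which may be technical.

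Long fatty acids are first joined to coenzyme A by acyl-CoA synthetases. A carnitine palmitoyltransferase on the outer mitochondrial membrane then moves the acyl chain to carnitine, a carrier takes the acylcarnitine through the inner membrane, and a second transferase returns the chain to coenzyme A. Each round of beta-oxidation is a dehydrogenation, a hydration, another dehydrogenation and a thiolysis, and the electrons of the first step pass through the electron transfer flavoprotein to the respiratory chain. The outer membrane step is inhibited by malonyl-CoA and is generally held to be the control point of the pathway.

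Library totals lay between 20918312 and 26413080 counts. Levels are TMM-normalized CPM (counts scaled to library size), and fold changes are on the log2 scale, pyruvate minus control, from the quasi-likelihood test of edgeR, with p-values adjusted by Benjamini-Hochberg over the 14912 genes tested. Control replicate 2 stood apart from the other controls: the leading principal component held 38.9% of the variance and put it at 36.5, against -4.12 and 0.81 for the others. Pyruvate replicate 1 stood apart from its group on the other side, at -27.2 against -1.42 and -4.64. Markers of differentiating spermatogonia summed to 766, 705 and 752 CPM in control and 769, 616 and 587 in pyruvate replicates 1, 2 and 3. All 7 were tested, with 2 log2 fold changes above 0, 5 below and a median of -0.12. Germ cell and spermatogonial markers were high, with all 15 tested and summed levels of 4353 to 4915 CPM in control and 4201 to 4506 in pyruvate libraries. Among markers of other cells, the 6 adipocyte genes summed to 1.57 to 3.36 and 2.27 to 2.72 CPM with Lep at 0 in every library, and the 6 macrophage and immune genes to 4.95 to 7.40 and 5.001 to 6.89 CPM with Adgre1 at 0. The 6 Sertoli cell genes summed to 24.9 to 29.0 and 23.4 to 28.9 CPM. The 10 fibroblast and mesenchymal genes, 8 of them tested, summed to 310 to 330 CPM in control and 375 to 419 in pyruvate libraries, with no overlap, although the median log2 fold change of those tested was -0.14 and 3 of 8 lay above 0. Most of that list was Col5a1, at 198 to 209 and 232 to 299 CPM, while Dcn and Lum stayed at or below 0.68 CPM. The part of these cells in the results was not tested, and in bulk RNA fewer cells of a type and less RNA per cell cannot be told apart.

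Of the 37 genes, 35 passed the filter on low counts and 0 of the 35 changed by edgeR's test at an adjusted p of 0.05, where 0.0536% of all tested genes did. An unadjusted p under 0.05 was found for 6 of them, against 14.4% of all tested genes. DESeq2 called 1 of them, Cpt1a, against 2.17% of all genes with an adjusted p. The levels of the groups did not overlap in 12 of the 35, of which 11 were higher in pyruvate medium and 1 was lower; the same held for 22.5% of all tested genes, 11.9% higher and 10.6% lower. Of the 35 log2 fold changes 20 lay above 0, against 48.1% of all tested genes, and their median was 0.013 against -0.010 over all tested genes. The summed level of the 37 genes was 1669 to 1718 CPM in control and 1795 to 1856 CPM in pyruvate libraries, with no overlap. Most of that difference came from Hadha and Cpt1a: the other 35 genes summed to 1319 to 1325 CPM in control and 1328 to 1367 CPM in pyruvate libraries.

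**Figure D1:**
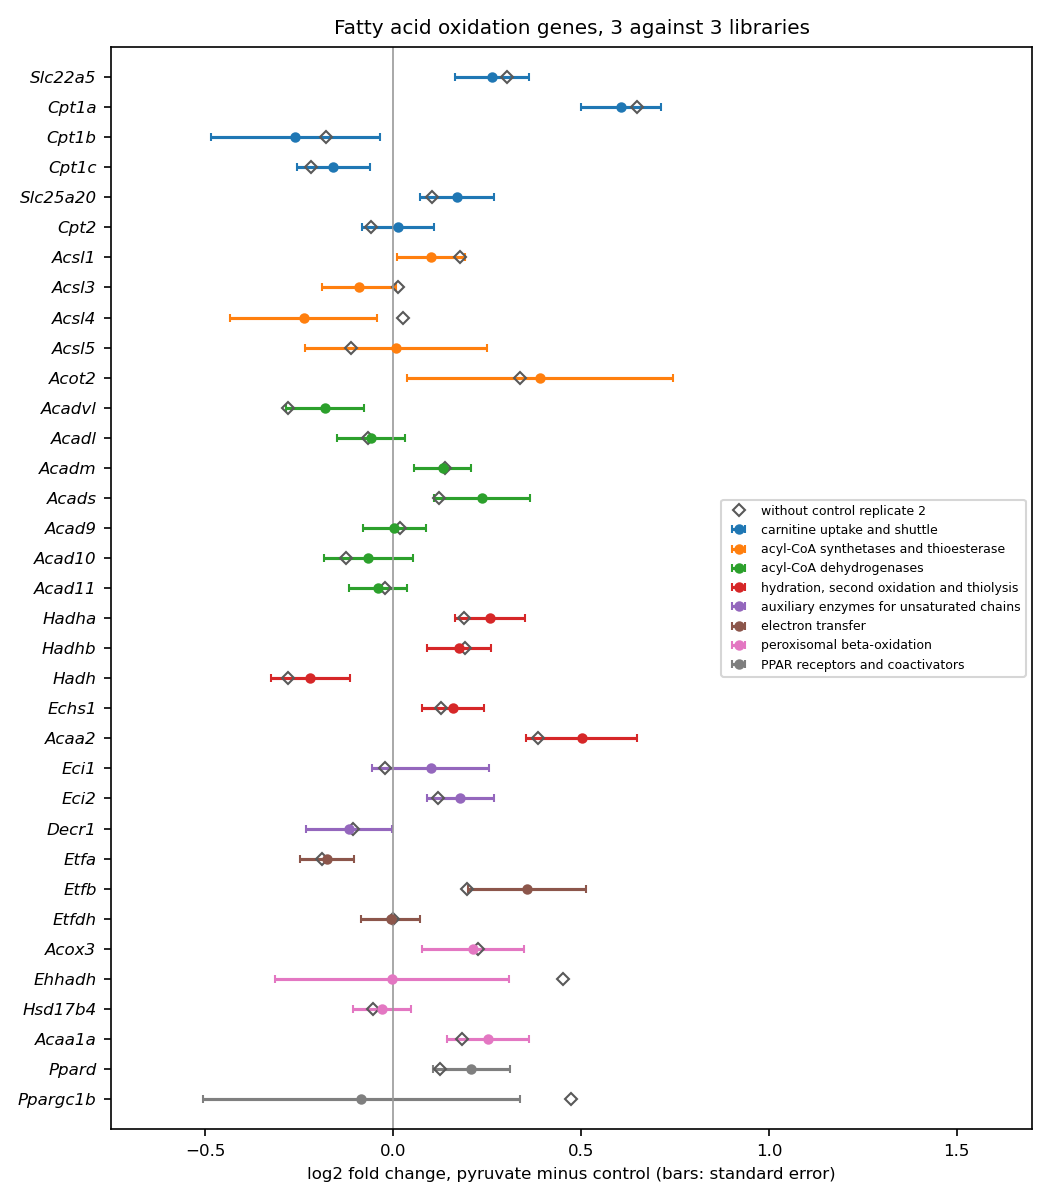
Log2 fold change of the 35 tested genes, pyruvate minus control (x axis), with bars for the standard error, coloured by role; open diamonds are the fit without control replicate 2. Cpt1a stands farthest to the right at 0.61 and Acaa2 next at 0.50, and Acsl4, Ehhadh and Ppargc1b move most when control replicate 2 is left out.

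In the carnitine shuttle, the outer membrane enzyme Cpt1a stood higher in pyruvate medium while the inner membrane enzyme Cpt2 did not differ beyond its error. Cpt1a (ENSMUSG00000024900, GRCm38 chromosome 19, 3322334 to 3385733, plus strand), the form of carnitine palmitoyltransferase that is widespread outside muscle, stood at 77.5, 84.0 and 76.5 CPM in control replicates 1, 2 and 3. It stood at 103, 132 and 128 CPM in pyruvate replicates 1, 2 and 3. Every pyruvate library lay above every control library, and pyruvate replicate 1 was the lowest of its group. The means were 79.3 ± 4.08 and 121 ± 15.6 CPM (SD, n = 3 per group), a ratio of 1.52.

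The log2 fold change of Cpt1a was 0.61 (SE 0.11, 95% interval 0.36 to 0.85), with adjusted p = 0.0937 in edgeR, and therefore did not pass. It passed in the same test without control replicate 2 (0.65, adjusted p = 0.0110), where 4.16% of all tested genes passed, and with no filter on low counts (adjusted p = 0.0239), where 0.371% did. DESeq2 gave 0.60 with adjusted p = 0.000647, and edgeR with each library's trend on GC content and transcript length removed gave 0.57 with adjusted p = 0.0105, where 5.33% of genes passed. The value stayed between 0.54 and 0.72 under all 13 alternatives, of which 5 passed the threshold. The trend removal among them was chosen after seeing the data. Adjusted p was 0.103 in limma-voom and highest, at 0.394, in edgeR without control replicate 3.

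The stretch before the start of Cpt1a is shown because this gene had the largest log2 fold change of the 35 tested. It lies at chr19:3323051-3323284 of GRCm38.p6 on the plus strand, is the longest stretch of the 250 bases before the RefSeq start that no annotated exon covers, and lies in an intron of a longer annotated transcript. Capitals mark the nuclear receptor single site AGGTCA, here on the minus strand, and the GC box GGGCGG, also on the minus strand.
Cpt1a: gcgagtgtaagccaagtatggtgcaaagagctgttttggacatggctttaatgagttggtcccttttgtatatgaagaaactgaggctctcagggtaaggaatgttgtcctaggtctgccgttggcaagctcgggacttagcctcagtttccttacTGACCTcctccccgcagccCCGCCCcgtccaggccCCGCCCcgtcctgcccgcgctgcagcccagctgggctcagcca

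RefSeq windows from 250 bases before to 50 after the start were matched for 31 of the 37 genes, in build GRCm38.p6, and both strands were searched; Acaa2, Acad9, Cpt1b, Decr1, Hsd17b4 and Ppargc1b were not matched. The GC box GGGCGG was found in windows of 24 of the 31 genes, or 77.4%, against 35.7% of all 32851 windows. AGGTCA was found for 5 genes, Acadm, Acadvl, Cpt1a, Cpt1c and Echs1, or 16.1% against 16.3% of all windows. The direct repeat of AGGTCA with 1 base between the copies, the form that PPAR dimers bind, was found for 0 of the 31 genes and in 0.0396% of all windows; AGGTCA is part of it. TATAAA was found for 0 genes and in 13.6% of all windows, and CCAAT for 15 genes, or 48.4%, against 37.4%. The median GC content of the windows was 60.7% for these genes and 52.7% for all windows. The shares of these genes are per gene, while those of all windows are per window, over 27025 genes with no filter on expression. These matches describe letters in the windows and not binding.

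The other 2 Cpt1 genes on the list, Cpt1c and Cpt1b, lay below control on average. Cpt1c, the form known from brain, stood at 38.5, 32.5 and 35.2 CPM in control and at 33.8, 30.2 and 31.1 in pyruvate replicates 1, 2 and 3. The groups overlapped, and the log2 fold change was -0.16 (SE 0.097, adjusted p = 0.496 in edgeR). Cpt1b, the muscle form, was low, at 1.75 to 2.63 CPM in control and 1.67 to 2.32 in pyruvate libraries (log2 -0.26, SE 0.23, adjusted p = 0.639). The annotated gene Gm44502 covers 81.4% of its exon length on the same strand, so its counts are uncertain.

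Per kilobase of transcript, Cpt1a made up 55.5%, 60.8% and 56.7% of the summed level of Cpt1a, Cpt1b and Cpt1c in control replicates 1, 2 and 3. Its share was 65.3%, 72.7% and 71.2% in pyruvate replicates 1, 2 and 3. The share was thus higher in every pyruvate library, at means of 57.7% ± 2.80 and 69.7% ± 3.93 (SD, n = 3), with p = 0.1 in a two-sided exact permutation test, the smallest p that 3 against 3 libraries allow. This share counts transcripts, not enzyme at the outer membrane, and was formed after the values of Cpt1a had been seen.

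The inner membrane partners stood nearer to their control levels. Cpt2, which returns the acyl chain to coenzyme A, stood at 73.4, 60.1 and 67.1 CPM in control and at 70.9, 66.6 and 64.9 in pyruvate libraries. Its log2 fold change was 0.013, with a 95% interval from -0.21 to 0.23. The ratio of Cpt1a to Cpt2 in CPM was 1.06, 1.40 and 1.14 in control and 1.45, 1.98 and 1.96 in pyruvate replicates 1, 2 and 3 (two-sided exact permutation p = 0.1, again the smallest possible). Control replicate 2 came close to pyruvate replicate 1 in this ratio, and the groups did not overlap.

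Slc25a20, the carnitine-acylcarnitine carrier between the 2 enzymes, stood at 26.3, 22.0 and 24.6 CPM in control and 28.2, 26.2 and 27.7 in pyruvate libraries, with a small overlap (log2 0.17, SE 0.098, adjusted p = 0.468 in edgeR). Slc22a5, which takes carnitine up across the plasma membrane, stood at 13.7, 15.7 and 15.3 CPM in control and 17.6, 17.4 and 18.6 in pyruvate libraries. Its groups did not overlap, but the difference did not pass (log2 0.26, SE 0.099, adjusted p = 0.286). It lies in a family of close copies, so reads shared with them could be split.

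**Figure D2:**
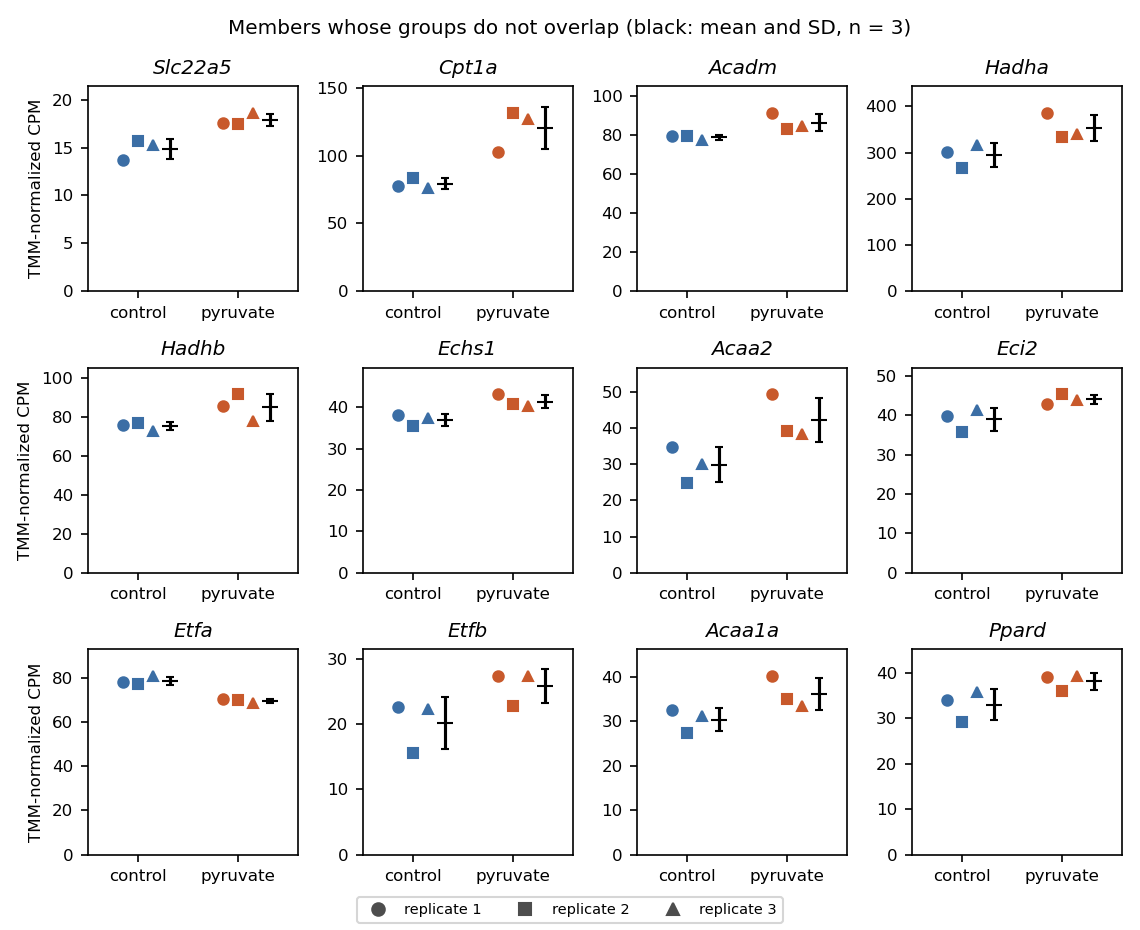
TMM-normalized CPM (y axes, each from 0) of the 12 tested genes whose control and pyruvate libraries did not overlap, with 1 symbol per replicate number and the mean and SD (n = 3) in black. Etfa is the 1 gene that lies lower in pyruvate medium; in Acaa2, Etfb, Acaa1a, Ppard and Hadha, among others, control replicate 2 is the lowest library.

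Acyl-CoA synthetases, which activate fatty acids before the shuttle, were led by Acsl3, and 0 of 4 tested changed. Acsl3, which sits on the endoplasmic reticulum and lipid droplets, stood at 192, 240.0 and 199.8 CPM in control and 188, 206 and 199 in pyruvate libraries (log2 -0.091, SE 0.098). Acsl4, which prefers arachidonic acid, stood at 34.1, 55.4 and 35.1 CPM in control and 29.8, 38.4 and 37.6 in pyruvate libraries. Control replicate 2 was the highest library for both genes, and their log2 fold changes went from -0.091 to 0.014 and from -0.24 to 0.028 without it. Acsl1, the form linked to oxidation in liver and muscle, stood at 61.4 to 73.5 CPM in control and 70.7 to 72.5 in pyruvate libraries (log2 0.10, SE 0.089, adjusted p = 0.645 in edgeR). Acsl5 stayed at 1.65 to 2.21 and 1.59 to 2.59 CPM. The thioesterase Acot2, which splits acyl-CoA inside mitochondria, had 10 to 26 counts per library, and its counts may be shared with its near copy Acot1.

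Acyl-CoA dehydrogenases carry out the first step of each round and differ in the chain length they accept; 0 of 7 changed, with 3 log2 fold changes above 0 and 4 below. Acadvl, for very long chains, stood at 90.03, 72.7 and 90.2 CPM in control and 76.9, 69.6 and 76.3 in pyruvate libraries. The low control replicate 2 fell among the pyruvate libraries, and the difference in log2 was -0.18 (adjusted p = 0.467, edgeR) with all libraries and -0.28 (adjusted p = 0.0523) without it. Exons of a gene on the opposite strand, Dvl2, cover 42.9% of the exon length of Acadvl, and the strand setting of the counting is not given, so its counts are uncertain. Acadm, for medium chains, stood at 79.8, 79.5 and 77.4 CPM in control and 91.6, 83.2 and 84.8 in pyruvate libraries. Its groups did not overlap, at a log2 fold change of 0.13 (SE 0.076, adjusted p = 0.467).

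Acads, for short chains, stood at 32.6, 23.4 and 28.0 CPM in control and 34.7, 31.0 and 33.4 in pyruvate libraries, with overlap (log2 0.24, SE 0.13, adjusted p = 0.440 in edgeR). Its log2 fold change was 0.12 without control replicate 2 and 0.36 without control replicate 1. Acadl, for long chains, ranged over 38.5 to 40.7 and 34.6 to 39.8 CPM. Acad9, which also helps to assemble respiratory complex I, had 36.2 to 38.4 and 35.7 to 39.1 CPM, with a log2 fold change of 0.0037 and a 95% interval from -0.19 to 0.19. Acad11 had 48.6 to 51.1 and 47.3 to 49.7 CPM and Acad10 10.7 to 12.7 and 10.01 to 11.8 CPM. The groups overlapped for each of Acadl, Acad9, Acad10 and Acad11.

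Of the 5 genes for the later steps of the mitochondrial spiral, 4 were higher in every pyruvate library, as were 11.9% of all tested genes, and 0 passed the test. Hadha and Hadhb encode the alpha and beta subunits of the trifunctional protein, which carries out the last steps for long chains. Hadha (ENSMUSG00000025745, chromosome 5, 30118304 to 30155162, minus strand) stood at 302, 266 and 317 CPM in control and 386, 333 and 339.5 in pyruvate libraries. Hadhb (ENSMUSG00000059447, chromosome 5, 30155248 to 30184593, plus strand) stood at 76.0, 77.1 and 73.0 CPM in control and 85.7, 91.7 and 78.0 in pyruvate libraries. Both subunits lay higher in every pyruvate library, by 0.26 (SE 0.094, adjusted p = 0.271 in edgeR) and 0.18 (SE 0.085, adjusted p = 0.392) on the log2 scale. The ratio of Hadha to Hadhb was 3.92 ± 0.45 in control and 4.17 ± 0.47 in pyruvate libraries (SD, n = 3, two-sided exact permutation p = 0.5).

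The 2 genes are transcribed away from each other, and the annotated exons leave 85 bases between them, shown because both subunits begin at its edges. It is chr5:30155163-30155247 of GRCm38.p6, written in the direction of Hadhb, with GC boxes GGGCGG in capitals.
Hadha-Hadhb: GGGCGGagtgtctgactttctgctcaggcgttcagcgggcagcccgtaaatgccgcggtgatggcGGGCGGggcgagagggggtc

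Acaa2, the mitochondrial thiolase (ENSMUSG00000036880, chromosome 18, 74779197 to 74806208), had the second largest log2 fold change of the 35 tested. It stood at 34.7, 24.9 and 30.0 CPM in control and 49.3, 39.3 and 38.3 in pyruvate replicates 1, 2 and 3. All pyruvate libraries lay above the highest control, at means of 29.9 ± 4.89 and 42.3 ± 6.09 CPM (SD, n = 3). The log2 fold change was 0.50 (SE 0.15, 95% interval 0.17 to 0.84, adjusted p = 0.194 in edgeR). Without control replicate 2, the lowest library, it was 0.39 with adjusted p = 0.101, without pyruvate replicate 1, the highest, it was 0.38 with adjusted p = 0.481, and it passed with the GC and length trend removed (0.46, adjusted p = 0.0265).

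Echs1, the short-chain enoyl-CoA hydratase, stood at 38.2, 35.4 and 37.4 CPM in control and 43.1, 40.7 and 40.2 in pyruvate libraries, without overlap (log2 0.16, SE 0.082, adjusted p = 0.421 in edgeR). Hadh, the hydroxyacyl-CoA dehydrogenase for shorter chains, went the other way. It stood at 36.1, 33.5 and 40.3 CPM in control and 34.3, 29.9 and 30.05 in pyruvate libraries, with overlap (log2 -0.22, SE 0.10, adjusted p = 0.383).

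Among the auxiliary enzymes that let unsaturated chains enter the spiral, Eci2, an enoyl-CoA isomerase, stood at 39.7, 35.6 and 41.3 CPM in control and 42.9, 45.2 and 43.8 in pyruvate libraries, without overlap (log2 0.18, SE 0.089, adjusted p = 0.404 in edgeR). Its mitochondrial relative Eci1 had 9.43 to 13.2 and 11.1 to 14.1 CPM, and the dienoyl-CoA reductase Decr1 8.69 to 9.15 and 7.61 to 9.001 CPM. Both overlapped between the media, and 0 of the 3 genes changed.

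The electron transfer flavoprotein, which takes electrons from the dehydrogenases, showed opposite signs in its 2 subunits. Etfa stood at 78.3, 77.3 and 80.8 CPM in control and 70.6, 69.9 and 68.7 in pyruvate libraries. It was the 1 gene of the 35 that lay lower in every pyruvate library, by 0.18 on the log2 scale (SE 0.072, 95% interval -0.34 to -0.011, adjusted p = 0.323 in edgeR). Etfb stood at 22.7, 15.6 and 22.3 CPM in control and 27.4, 22.8 and 27.4 in pyruvate libraries.

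Control replicate 2 was far below the other controls for Etfb, and pyruvate replicate 2 barely exceeded them. The log2 fold change of Etfb was 0.36 (SE 0.16, adjusted p = 0.348 in edgeR) with all libraries and 0.20 without control replicate 2. Annotated genes on the same strand, Gm45233 among them, overlap its exons. The largest overlap with a single gene covers 53.0% of the exon length of Etfb, so its counts are uncertain. Etfdh, which passes the electrons to ubiquinone, was level at 28.9 ± 0.28 and 28.8 ± 0.57 CPM (SD, n = 3; log2 -0.0067, 95% interval -0.19 to 0.18).

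Of the peroxisomal enzymes, 0 of 4 changed. Hsd17b4, the multifunctional enzyme of peroxisomal beta-oxidation, was the most abundant per length and stood at 89.7 ± 3.90 and 87.9 ± 3.45 CPM (SD, n = 3; log2 -0.029, 95% interval -0.20 to 0.15). Acaa1a, the peroxisomal thiolase, stood at 32.6, 27.5 and 31.2 CPM in control and 40.2, 35.0 and 33.5 in pyruvate libraries, without overlap (log2 0.25, SE 0.11, adjusted p = 0.338 in edgeR). Its counts are uncertain to the extent that reads were shared with the near copy Acaa1b. Acox3, an oxidase for branched chains, had 5.20 to 5.52 and 5.36 to 6.77 CPM. Ehhadh, the other multifunctional enzyme, had 1.24 to 2.95 and 1.67 to 2.27 CPM; control replicate 2 was its highest library, and the log2 fold change went from -0.0020 to 0.45 without it.

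The regulators were mostly at very low levels. Ppara, the receptor best known for switching on these genes in liver, had 5, 8 and 5 counts in control and 6, 2 and 2 in pyruvate libraries and was not tested. Ppargc1a, a coactivator of mitochondrial genes, had 0, 4 and 2 counts in control and 2, 3 and 1 in pyruvate libraries and was not tested either. A count of 0 in control replicate 1 allows up to 0.138 CPM at a floor of 3 counts, which covers counting error only. At counts this low in both groups, no direction was read from Ppara or Ppargc1a. Ppargc1b had 8 to 25 counts per library (log2 -0.084, SE 0.42).

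Ppard, the widely expressed PPAR, was the 1 regulator of the 4 at more than 1 CPM. It stood at 34.0, 29.1 and 35.9 CPM in control and 39.1, 36.0 and 39.3 in pyruvate libraries. The groups were separated only narrowly, between control replicate 3 and pyruvate replicate 2, and the log2 fold change was 0.21 (SE 0.10, adjusted p = 0.400 in edgeR) with all libraries and 0.12 (adjusted p = 0.414) without control replicate 2.

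**Figure D3:**
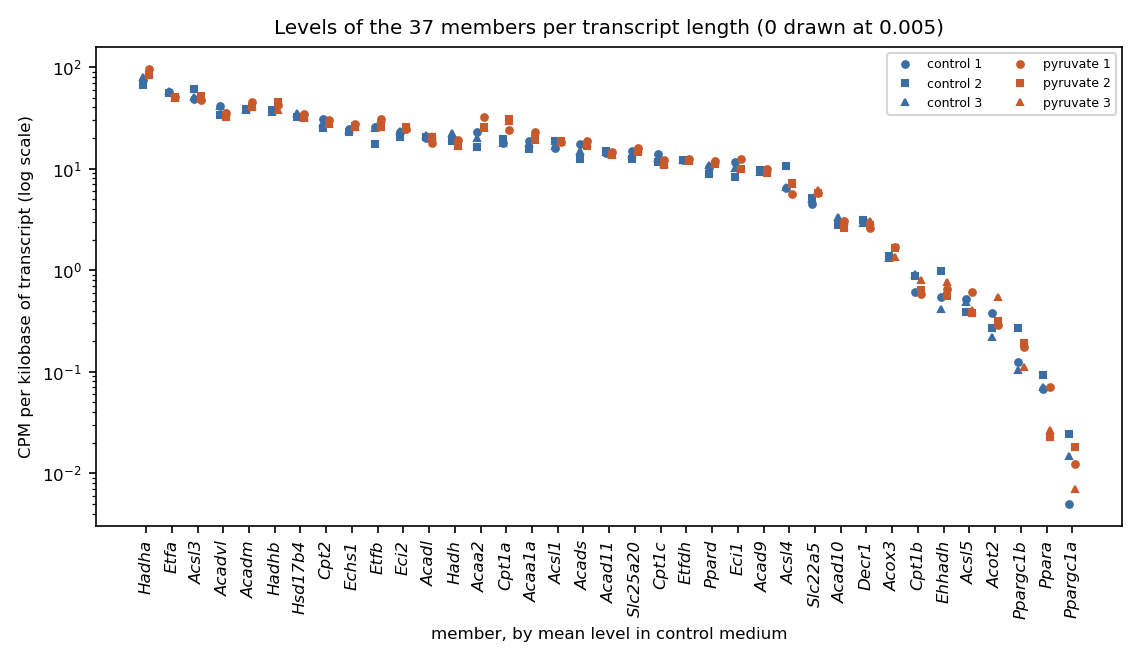
CPM per kilobase of the longest coding transcript (y axis, log scale) for the 37 genes in all 6 libraries, ordered by mean level in control medium; a value of 0 is drawn at 0.005. Hadha leads at 73.5 in control medium, and Ppara and Ppargc1a lie at the bottom.

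Compared per kilobase of the longest coding transcript, Hadha had the highest level in control medium, 73.5 ± 6.54 CPM per kilobase (SD, n = 3), followed by Etfa at 56.6 ± 1.32 and Acsl3 at 53.3 ± 6.53. Hadha did not overlap with Etfa over the control libraries, while Etfa and Acsl3 did. Acadvl at 38.9 ± 4.63 and Acadm at 38.5 ± 0.64 overlapped too, and Hadhb at 36.8 ± 1.02 lay below Acadm without overlap. From Echs1 at 23.8 down to Etfdh at 12.2 CPM per kilobase every neighbour in the order overlapped with the next. The 8 lowest were Acox3, Cpt1b, Ehhadh, Acsl5, Acot2, Ppargc1b, Ppara and Ppargc1a, from 1.36 down to 0.013 CPM per kilobase. With the length of all annotated exons in place of the transcript, the first 3 were Acsl3, Etfa and Hadha and the 8 lowest genes were the same, while Echs1 went from place 9 to place 25, so the middle of the order depends on the length used.

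Within families, Acsl3 made up 67.8% ± 0.55 of the level of the 4 synthetases per kilobase in control and 66.3% ± 0.26 in pyruvate libraries (SD, n = 3). Of the 4 chain-length dehydrogenases Acadvl, Acadl, Acadm and Acads, Acadvl made up 34.3% ± 2.18 in control and 30.1% ± 0.71 in pyruvate libraries, and Acadm 34.2% ± 2.33 and 37.1% ± 1.17. The two-sided exact permutation p was 0.1 for Acadvl, the smallest possible, 0.1 for Acsl3 and 0.2 for Acadm; with the length of all annotated exons Acsl3 made up 77.1% and 76.8%, with p = 0.7. These shares were formed after the values had been seen, and 6 such shares and ratios were tested in all by exact permutation, of which 4 had p = 0.1, or 0.15 after Benjamini-Hochberg adjustment over the 6.

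**Figure D4:**
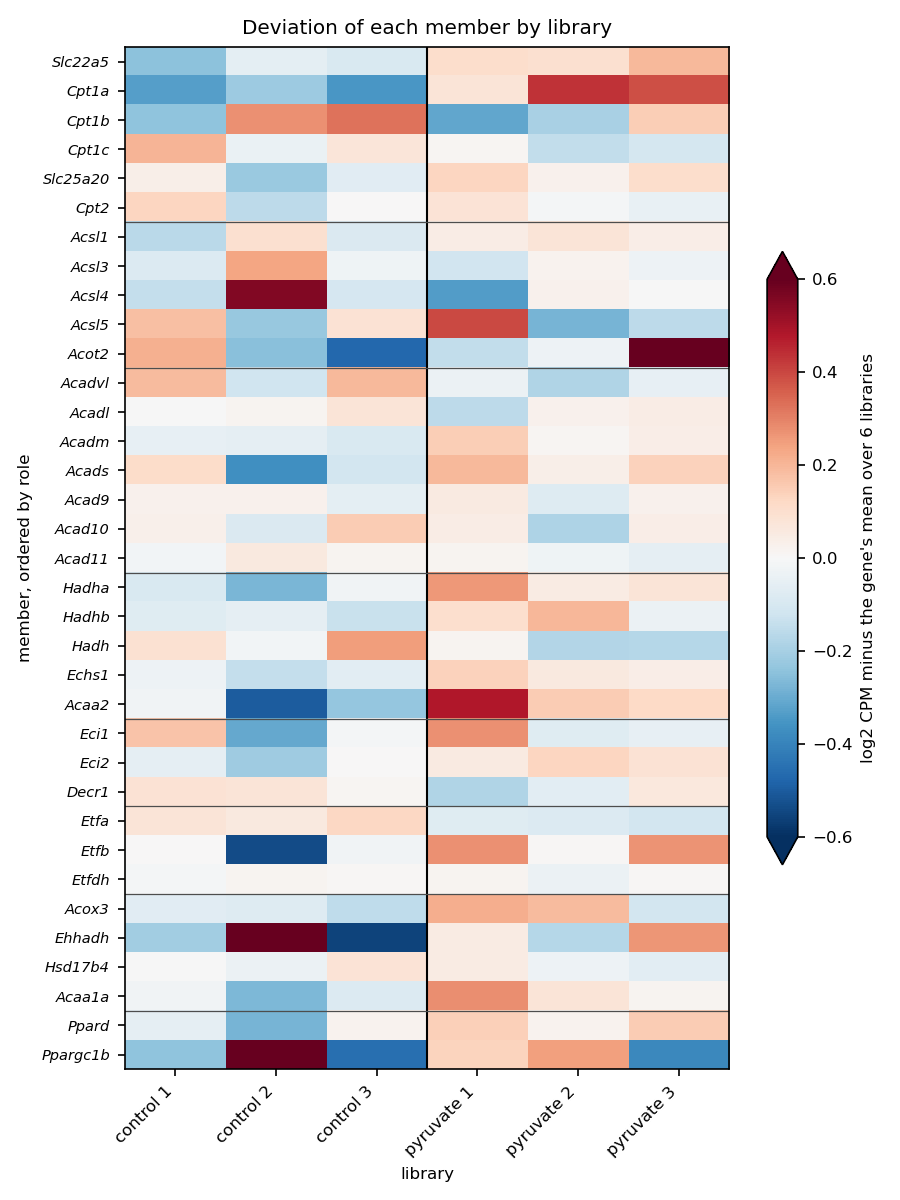
Log2 CPM of each of the 35 tested genes in each library minus the gene's mean over the 6 libraries (colour), with genes ordered by role and controls left of the vertical line. Cpt1a is low in all 3 controls and highest in pyruvate replicates 2 and 3. Among the genes in which control replicate 2 departs from the other controls are Acsl4, Acads, Acaa2, Eci1, Etfb, Ehhadh and Ppargc1b.

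The differences within a group were as large as many between groups. Control replicate 2 was the lowest control for 18 of the 35 genes, the highest for 11 and between the others for 6, and pyruvate replicate 1 was the highest pyruvate library for 21 and the lowest for 8. On the log2 scale, control replicate 2 departed from the mean of the other controls by -0.53 for Etfb, -0.39 for Eci1 and -0.37 for Acaa2 and Acads. Upward, it departed by 1.05 for Ppargc1b and 1.00 for Ehhadh, both with few counts, and by 0.68 for Acsl4. For Cpt1a that departure was 0.13, toward the pyruvate libraries.

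Other genes of fatty acid handling were read from lists of 105 symbols that hold none of the 37, and 0 of the 91 tested passed edgeR's test, where 0.0536% of all genes did. An unadjusted p under 0.05 was found for 19 of the 91, against 14.4% of all tested genes, and DESeq2 called 1, against 2.17%. Their log2 fold changes lay above 0 for 59 of 91, against 48.1% of all tested genes, with a median of 0.079. The 19 and the 59 both include Pdk4, which passed the filter on low counts only through the pyruvate libraries. Of the genes for fatty acid uptake and binding, 8 of 11 were tested and 7 lay above 0. Slc27a1, a fatty acid transport protein, stood at 41.1 ± 2.95 and 51.6 ± 4.91 CPM (SD, n = 3; log2 0.33, adjusted p = 0.212), without overlap, and Fabp5, a fatty acid binding protein, at 5.20 ± 0.53 and 4.43 ± 0.13 CPM. Cd36, the scavenger receptor that takes up fatty acids in muscle and fat, had 0 counts in every library, which allows up to 0.116 to 0.143 CPM.

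The list for malonyl-CoA and AMPK, the inhibitor of the outer membrane enzyme and the kinase that lowers it, had 10 of 10 tested, 6 above 0 and 0 changed. Mlycd, which degrades malonyl-CoA, stood at 4.87, 5.77 and 4.58 CPM in control and 8.85, 6.40 and 6.32 in pyruvate libraries (log2 0.50, SE 0.17, adjusted p = 0.258 in edgeR). Its groups did not overlap, and pyruvate replicate 1 was the highest library: without it the log2 fold change was 0.33 (adjusted p = 0.568). Prkaa2, a catalytic subunit of AMPK, stood at 4.14, 9.78 and 4.49 CPM in control and 3.51, 5.82 and 4.27 in pyruvate libraries, and its log2 fold change went from -0.45 to 0.075 without control replicate 2.

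Carnitine synthesis and other carnitine carriers had 4 of 6 genes tested, all 4 above 0, and 0 changed. Slc22a21, a carnitine transporter close to Slc22a5 in sequence, stood at 9.04 ± 0.44 and 11.9 ± 1.08 CPM (SD, n = 3; log2 0.39, SE 0.11, adjusted p = 0.189 in edgeR). Slc22a4, its other relative, had means of 4.20 ± 0.25 and 5.84 ± 0.69 CPM (difference on the log2 scale 0.48, SE 0.14, adjusted p = 0.201). Slc22a5, Slc22a21 and Slc22a4 each lay higher in every pyruvate library without passing the test, as 11.9% of all tested genes lay higher. Slc22a21 and Slc22a4 were named for their low p within the list, and reads could be shared among these related genes.

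Other acyl-CoA enzymes had 15 of 18 tested, with 7 above 0, 8 below and 0 changed. Decr2, the peroxisomal dienoyl-CoA reductase, stood at 15.8 ± 0.57 and 13.3 ± 0.86 CPM (SD, n = 3; log2 -0.25, adjusted p = 0.305 in edgeR), lower in every pyruvate library. In the peroxisome list 24 of 24 were tested, 16 lay above 0 and 0 changed. Abcd2, a peroxisomal importer of very long chains, stood at 9.10, 13.8 and 8.60 CPM in control and 14.4, 17.7 and 17.6 in pyruvate libraries (log2 0.65, SE 0.19, adjusted p = 0.189). It passed without control replicate 2, the highest control (0.90, adjusted p = 0.00913), and with the GC and length trend removed (0.77, adjusted p = 0.00390). Pex16, a membrane factor of peroxisome formation, had means of 27.1 ± 3.19 and 35.8 ± 4.84 CPM (a log2 fold change of 0.41, adjusted p = 0.222) and passed with that trend removed (0.33, adjusted p = 0.0323).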

How the data were processed

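Each deposited value is a raw count of reads for 1 gene and 1 library, not normalized by the authors. Per the submitters' processing notes, the tools were bcl2fastq 2.20, cutadapt 4.6, STAR 2.7.11a and HTSeq 2.0.5, with mm10 as genome. Neither the annotation release nor the strand setting is given in the sources used here. Stranded mRNA libraries were made from RNA taken with TRIzol and a spin column, per the labels' protocols. A further 3 columns of the table were not used here.

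edgeR 4.0.16 (R 4.3.3) was run with filterByExpr at a minimum count of 10, TMM factors and the robust quasi-likelihood test, with no covariate and adjustment over all 14912 genes. A standard error is the log2 fold change over the root of its F statistic. Each library was treated as 1 sample. Library pairs within a group differed by more than sampling noise (chi-square per gene at least 2.97), which does not show that they are separate cultures. Positions, overlaps and transcript lengths came from GENCODE M21 on GRCm38, and promoter windows from RefSeq. As alternatives, size factors of DESeq2, library totals, no filter, DESeq2 1.42.0, limma-voom (limma 3.58.1), the replicate number as a block and each library left out were tried. Chosen after seeing the data were the subtraction, per library, of trends on GC and length by splines with 5 degrees of freedom, and union exon lengths. The steps were run on simulated counts that held no outlying library and no trend on GC content or length, so that run does not cover these features. The 37 genes and the lists were chosen with earlier results of these data known. The text names all 37 and, of each other list, the genes past the test and the 2 of lowest p; of the marker lists it names the highest and those at 0, and other genes were chosen after their values were seen. Some genes that this rule names are not reported here.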

Additional observations from a re-analysis of the deposited data

How the results depend on the processing

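Every alternative named under processing was run. Of 455 log2 fold changes of the 35 tested genes under 13 alternatives, 413 kept their direction and side of the threshold, 7 gained a call and 35 changed direction; 23 genes kept their direction throughout. With 3 libraries a group, genes with few counts carry wide intervals. The causes of the changes were not tested.

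The 8 genes called among all tested became 14 with library totals, 83 with no filter, 288 with DESeq2 and 794 once the trends on GC and length were taken out, and 0 to 625 when 1 library was left out, 625 without control replicate 2. An unadjusted p under 0.05 was found for 1605 and 1661 genes in edgeR without pyruvate replicates 2 and 3, where 0 passed. Calls among the 35 went from 0 to 1 with no filter and with DESeq2, to 2 with the trend removed, and to 0 to 1 when 1 library was left out. Calls among the other lists went from 0 to 1 with no filter and with DESeq2, and to 5 with the trend removed. They were 0 to 2 when 1 library was left out, 2 without control replicate 2. Over all genes the share called was 0.371% with no filter and 2.17% with DESeq2. It was 5.33% with the trend removed and 4.16% without control replicate 2.

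With the replicate number as a block, 265 of all genes (1.78%), 2 of the 35 (Cpt1a, adjusted p = 0.0182 in edgeR, and Acaa2, 0.0358) and 2 of the other lists (Rxrg and Abcd2) passed. Deviations of libraries with the same number correlated at 0.31, 0.31 and -0.073, and not every library correlated best with its own number. With 3 libraries a group, these correlations cannot decide whether the numbers pair the samples. Under the block, Ehhadh turned to 0.038 and Acsl5 to -0.0093.

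Log2 fold changes that changed sign stayed close to 0 for most genes. With DESeq2 size factors Acad9 became -0.0021. With library totals Ehhadh became 0.035, Hsd17b4 0.0011 and Etfdh 0.024. With DESeq2 Ehhadh became 0.0051, Acsl5 -0.0019 and Acad9 -0.0032, and with limma-voom Ehhadh 0.066, Acsl5 -0.011 and Ppargc1b 0.0014. With the trend removed Ehhadh became 0.024, Etfdh 0.016 and Cpt2 -0.034. Leaving out each library in turn gave log2 fold changes from -0.059 to 0.086 for Cpt2, -0.15 to 0.014 for Acsl3, -0.36 to 0.028 for Acsl4, -0.24 to 0.14 for Acsl5, -0.096 to 0.0081 for Acadl, -0.020 to 0.042 for Acad9 and -0.12 to 0.0070 for Acad10. The ranges were -0.022 to 0.22 for Eci1, -0.013 to 0.0094 for Etfdh, -0.23 to 0.45 for Ehhadh, -0.056 to 0.0099 for Hsd17b4, -0.31 to 0.47 for Ppargc1b and -0.67 to 0.075 for Prkaa2. For Acsl3, Acsl4, Ehhadh, Ppargc1b and Prkaa2 the highest value was that without control replicate 2.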

Other observations

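Of PPAR targets and lipid droplet genes, 10 of 15 were tested, 7 lay above 0 and 0 changed. Pdk4, the kinase that inhibits pyruvate dehydrogenase, stood at 0.32, 0.35 and 0.096 CPM in control and 0.60, 0.89 and 0.59 in pyruvate libraries (log2 1.39, SE 0.44, adjusted p = 0.222 in edgeR). At these levels it passed the filter on low counts only through the pyruvate libraries. Control replicate 3 lay below its floor of 0.143 CPM, and DESeq2 gave Pdk4 no adjusted p. No direction was therefore read from Pdk4, though it is among the 7 above 0. Mgll, which completes the breakdown of stored triglyceride, stood at 18.6 ± 0.65 and 22.5 ± 1.11 CPM (SD, n = 3; log2 0.27, adjusted p = 0.234).

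PPAR partners and related receptors had 15 of 15 tested, with 7 above 0, 8 below and 0 changed. Rxrg, a retinoid X receptor and as such a dimer partner of PPARs, stood at 58.2, 46.4 and 55.3 CPM in control and 25.4, 34.9 and 32.2 in pyruvate libraries. Every pyruvate library was lower, with control replicate 2 the lowest control (log2 -0.79, SE 0.14, adjusted p = 0.0954 in edgeR). It passed without control replicate 2 (-0.88, adjusted p = 0.00586), in DESeq2 (adjusted p = 0.000134), with no filter (0.0175) and with the trend removed (0.0113). Esrrb, an orphan receptor of pluripotent cells, stood at 6.60 ± 0.35 and 9.56 ± 0.57 CPM (SD, n = 3; log2 0.54, adjusted p = 0.128), and passed with the trend removed (0.47, adjusted p = 0.0359).

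Control replicate 2 differed from the other controls along transcript length and GC content. Over the 35 genes, its log2 departure from the mean of control replicates 1 and 3 correlated with log2 transcript length at r = 0.52 and rho = 0.54, and with GC content at r = -0.37 and rho = -0.51. Over the 14908 tested genes with both values, the correlations were 0.46 and 0.52 for length and -0.53 and -0.55 for GC content. These are correlations across genes of the same libraries, which are not independent replicates, and are given as a description.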
